A study of Mus musculus with 12 samples.

Results

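ADAM, ADAMTS and ADAMTS-like genes were examined in RNA recovered with HA-tagged ribosomes from mouse retina at postnatal day 3 (P3) and postnatal day 9 (P9). They were taken by symbol, as every gene named Adam, Adamts or Adamtsl followed by a number with at least 100 expected counts summed over the 12 libraries. That gave 40 members of 57 such symbols among 53090 gene rows, 17 of them ADAM, 18 ADAMTS and 5 ADAMTS-like. Just inside the limit were Adam5 (149 counts in all), Adam7 (177) and Adam33 (212). Just outside were Adam28 (92) and Adamts13 (90), and 10 of the 17 genes left out had no count in any library.

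All animals were C57BL/6 and all received tamoxifen by intraperitoneal injection on days 1 and 2, so the ages also differ in the time since tamoxifen, and these cannot be told apart. Each age has 6 libraries of polysome RNA, which the labels assign to retinal pericytes. The sources used here do not give what drives the tag, the litters, or whether animals were pooled. P-values therefore measure the spread between libraries, which may be technical. By its title the series is about pericyte maturation, and its samples allow 1 comparison, that of the older with the younger age.

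ADAMs are membrane proteins with a metalloprotease and a disintegrin domain, and many of them shed the outer parts of receptors, growth factors and adhesion molecules. ADAMTS enzymes are secreted proteases with thrombospondin repeats that cut proteoglycans, procollagens and other matrix proteins. ADAMTS-like proteins carry the repeats without a protease domain and are known from fibrillin microfibrils. In growing vessels these families are known for Notch activation, for the release of growth factors and for the turnover of the matrix around endothelial cells and pericytes.

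Levels are CPM, counts scaled to a common library size with TMM factors, and fold changes are P9 over P3 from the quasi-likelihood test of edgeR with Benjamini-Hochberg adjustment over all 18638 genes tested (threshold 0.05). Means are given ± SD over the 6 libraries of an age, P3 first. CPM is not divided by transcript length, so levels are compared between ages and not between genes. Of the 40 members 39 passed the low-count filter, all but Adam5. Among them 12 rose at P9, 11 fell and 16 did not pass. The called share was 59% of members, against 51.8% of all genes tested, with 26.1% of all genes higher and 25.6% lower. A change of at least 2-fold was called for 13 of the 39 tested members (10 up, 3 down), against 3357 of 18638 genes (18%). The 6 values of one age lay wholly apart from those of the other for 17 of the 39 tested members, and for 5910 of 18638 genes (31.7%). The median log2 fold change was 0.039 over members and -0.0018 over all genes.

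By class, of the 16 tested ADAM genes 2 rose and 4 fell, of the 18 ADAMTS genes 6 rose and 7 fell, and of the 5 ADAMTS-like genes 4 rose and none fell. Their median log2 fold changes were -0.14, -0.13 and 1.61, in that order. The called shares of the classes were 37.5%, 72.2% and 80%, against 51.8% of all genes tested. Whether these counts differ between classes was not tested.

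**Figure D1:**
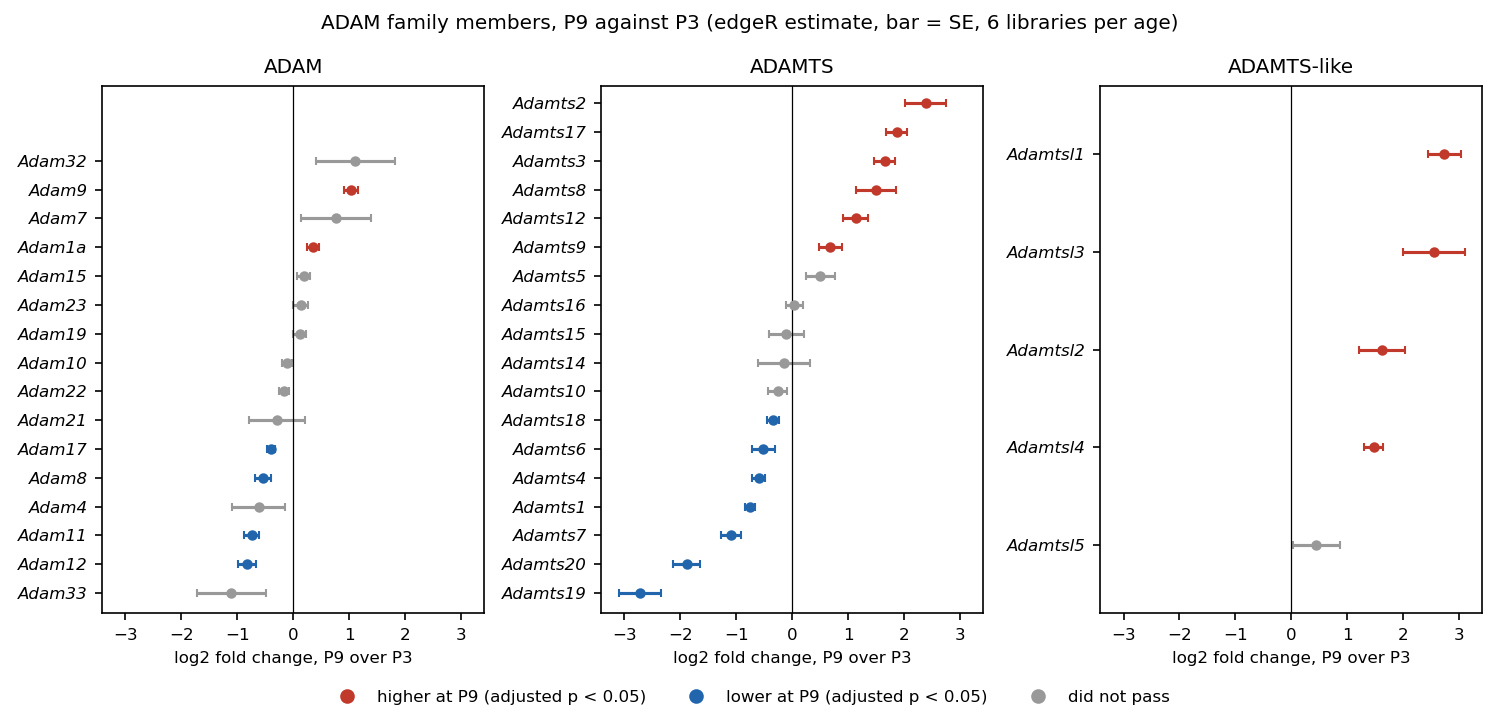
Log2 fold change of each tested member, P9 over P3 (horizontal axis; bars are the standard error of the edgeR estimate, 6 libraries per age), with genes listed by class on the vertical axis. ADAMTS genes spread from -2.73 (Adamts19) to 2.38 (Adamts2). Every tested ADAMTS-like gene lies above 0, and 4 of the 5 (80%) passed the test, against 51.8% of all genes tested.

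For the labelled cell type, the levels of 12 pericyte markers were read. All were detected in every library, 11 rose at P9 and 1 did not pass, and their summed level ran from 365 to 1345 CPM at P3 and 2827 to 6346 CPM at P9. None of the 12 libraries holds RNA from before the recovery of tagged ribosomes, so enrichment of pericyte RNA could not be checked. All 5 tested smooth muscle markers also rose (13.9 to 63 CPM at P3 and 80.5 to 216 CPM at P9). Markers of other retinal cells were present in the same RNA. Bipolar sums ran from 1091 to 1284 CPM at P3 and 1863 to 2552 CPM at P9 (7 of 8 markers higher). Cone sums ran from 298 to 398 CPM at P3 and 427 to 654 CPM at P9 (4 of 6 higher). Ganglion cell sums ran from 185 to 218 CPM at P3 and 241 to 405 CPM at P9 (5 of 7 higher). Erythroid sums ran from 13.5 to 61.8 CPM at P3 and 120 to 1042 CPM at P9 (3 of 3 tested higher). The summed rod markers ran from 1111 to 2306 CPM at P3 and 6263 to 13517 CPM at P9 (8 of 8 higher) and the Müller glia markers from 716 to 1080 CPM at P3 and 1213 to 1921 CPM at P9 (6 of 8 higher). Retinal progenitor markers went the other way, from 1816 to 2651 CPM at P3 and 1161 to 1374 CPM at P9 (8 of 9 lower), as did lens markers, from 3023 to 8191 CPM at P3 and 35.2 to 819 CPM at P9 (6 of 6 lower). Of 10 endothelial markers 6 rose, 3 did not pass and 1, Kdr, fell. Kdr made up most of their sum (878 to 1041 CPM at P3 and 712 to 818 CPM at P9), with means of 926 and 603 CPM, while the means of the other 9 added up to 53.3 CPM at P3 and 157 CPM at P9. Fibroblast markers stood at 484 CPM in P3 replicate 1 and at 91.5 to 141 CPM in the other P3 libraries, with no count in some library for 2 of the 7. The part of these cells in the changes of the ADAM family was not tested, and in such bulk RNA fewer cells of a type cannot be told apart from less RNA per cell.

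**Figure D2:**
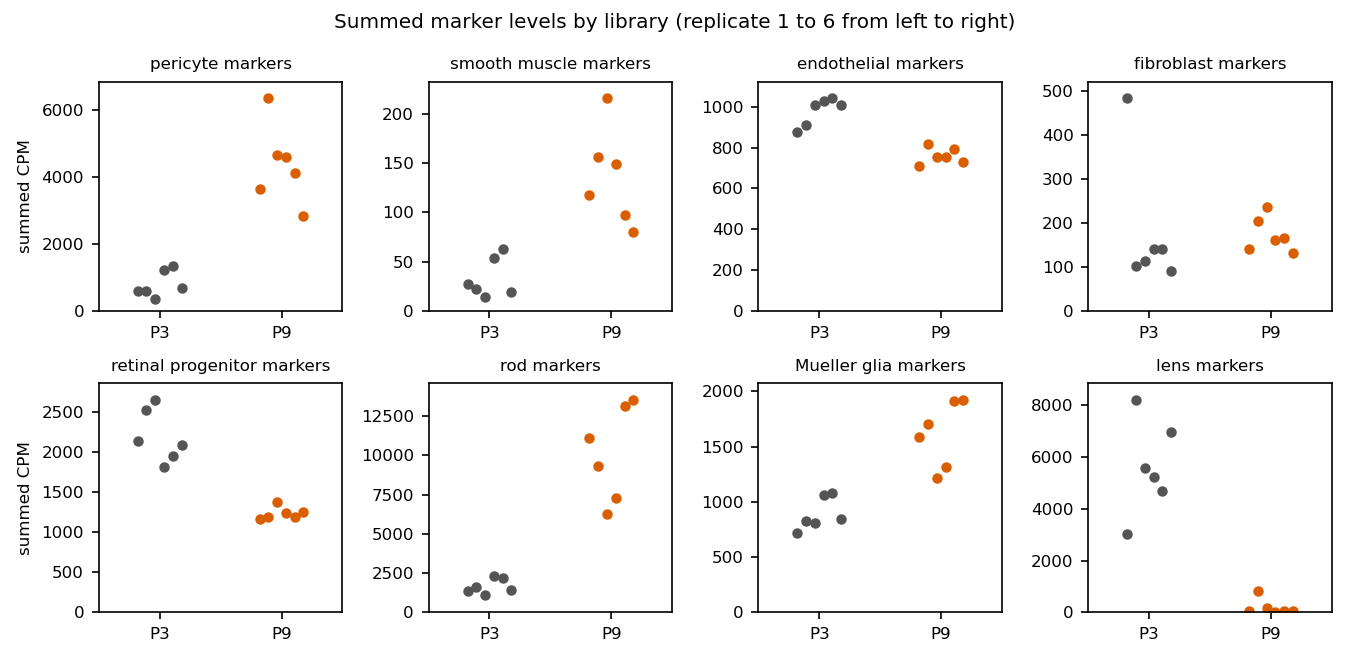
Summed CPM of 8 marker lists in each library (vertical axes from 0, one point per library, P3 in grey and P9 in orange). Pericyte, smooth muscle, rod and Müller glia sums are higher in every P9 library than in any P3 library, progenitor and lens sums are lower, the endothelial sum is mostly Kdr, and P3 replicate 1 stands apart in the fibroblast sum at 484 CPM.

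Upstream sequence is shown for 3 ADAMTS genes because they carry the opposite movements of the class. Adamts2 and Adamts3 encode procollagen N-proteinases and rose, and Adamts1 encodes a versican-cleaving protease and fell. Each line is the 250 bases before the start site in RefSeq on GRCm38.p6, 5′ to 3′ on the strand of the gene, and capitals mark matches on either strand to the motifs named after them.

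Adamts2: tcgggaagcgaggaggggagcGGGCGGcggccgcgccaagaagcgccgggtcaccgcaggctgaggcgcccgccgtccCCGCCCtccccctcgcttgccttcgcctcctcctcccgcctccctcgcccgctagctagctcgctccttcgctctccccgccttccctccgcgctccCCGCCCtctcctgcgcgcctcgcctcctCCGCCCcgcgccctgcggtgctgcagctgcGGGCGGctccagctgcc

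Adamts3: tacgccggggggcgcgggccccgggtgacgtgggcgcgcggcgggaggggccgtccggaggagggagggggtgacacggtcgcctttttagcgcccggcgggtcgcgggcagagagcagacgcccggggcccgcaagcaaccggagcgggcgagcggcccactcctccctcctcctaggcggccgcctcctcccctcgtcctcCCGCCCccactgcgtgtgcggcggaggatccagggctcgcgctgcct

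Adamts1: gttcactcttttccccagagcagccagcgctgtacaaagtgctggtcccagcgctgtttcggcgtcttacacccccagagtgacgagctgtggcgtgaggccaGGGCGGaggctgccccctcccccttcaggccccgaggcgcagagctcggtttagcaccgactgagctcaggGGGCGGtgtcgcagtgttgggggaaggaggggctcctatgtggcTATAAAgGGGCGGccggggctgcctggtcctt

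The windows lie at chr11:50601835-50602084 (plus strand), chr5:89883335-89883584 (minus strand) and chr16:85803114-85803363 (minus strand). The start site used for Adamts3 lies 334 bases inside the outer end of its RefSeq gene. The motifs were TATAAA (the core of the TATA box), GGGCGG (the GC box), GTGGGAA (the core bound by the Notch partner RBPJ), GGAATG (the TEAD core) and CACGTG (an E-box), searched on both strands. GGGCGG stood 5 times in the window of Adamts2, 1 time in that of Adamts3 and 3 times in that of Adamts1, and 32.9% of 27025 promoter windows of that length held it. TATAAA stood in the window of Adamts1, next to a GC box, and in 13% of all windows. None of the 3 windows held the RBPJ core, the TEAD core or the E-box, which stood in 5.41%, 12.6% and 6.05% of all windows. Among other members, the window of Adamtsl2, which rose, held TATAAA 1 time and the RBPJ core 1 time. The RBPJ core also stood in that of Adam21, which did not pass. GGGCGG stood 6 times in that of Adamts14, which did not pass. Bases G and C made up 78% of the window of Adamts2, 78% of that of Adamts3 and 65.6% of that of Adamts1, with 34, 35 and 15 CpG pairs. Other members with a high share included Adamtsl3, which rose (80% and 39 pairs), Adamts20, which fell, and Adamts14, which did not pass, both at 76.4% with 32 and 35 CpG pairs. The start site used for Adamts20 lies 27724 bases inside the outer end of its RefSeq gene. The median share of G and C was 64.4% over 9 members that rose and 65.6% over 5 that fell. The table held 22 members, with a median of 66.2% G and C and 17.5 CpG pairs, against 52% and 6 over all windows. Windows of members and of all genes were not picked by the same rule, and all genes include those with low counts. These matches describe the sequence and were not tied to the changes in level.

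Among the sheddases that release receptors and ligands from the cell surface, Adam9 rose and Adam17 fell. Adam9 (ENSMUSG00000031555.15, chromosome 8, 24949611 to 25017040 in GRCm38.p6) encodes a membrane protease whose loss causes a cone-rod dystrophy. Its lowest, median and highest values were 47.2, 69.4 and 86 CPM at P3 and 120.3, 139 and 156 CPM at P9. Every P9 library lay above every P3 library, and P3 replicates 1 and 2 were the lowest at 47.2 and 54.9 CPM. Mean and SD of the 6 libraries were 67.9 ± 15.5 and 139 ± 11.4 CPM, a 2.05-fold rise (edgeR log2 fold change 1.03 ± 0.13, SE; adjusted p = 1.37e-05). The rod sum rose in the same libraries as given above, as did the pericyte, smooth muscle, Müller glia, bipolar, cone, ganglion cell and erythroid sums. The part of these cells was not tested.

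Adam17 (ENSMUSG00000052593.15, chromosome 12, 21323509 to 21373632) encodes the enzyme that frees TNF and most ligands of the EGF receptor. It was measured at 47.6, 56.3 and 60.002 CPM at P3 and 37.6, 43.4 and 44.8 CPM at P9. The ages did not overlap, with P3 replicate 4 nearest to P9 at 47.6 CPM, while the other P3 libraries stood at 55.7 CPM or more. The fall was small, 1.32-fold (log2 fold change -0.40 ± 0.073, SE; adjusted p = 0.00034). Adam10 (ENSMUSG00000054693.14, chromosome 9, 70678944 to 70780229), the main enzyme that cuts Notch receptors after ligand binding, stood at 94.4, 121 and 129.99 CPM at P3 and 97.7, 111 and 118 CPM at P9. These ranges overlapped almost completely, and the difference did not pass (log2 fold change -0.11 ± 0.088, SE; adjusted p = 0.321).

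Adam12 and Adam8 also fell. Adam12, a protease known from developing mesenchyme and muscle, went from 56.4 ± 6.64 to 31.9 ± 8.61 CPM (adjusted p = 0.000526), with no P9 library above the lowest P3 library. At P9 its values were lowest in replicates 5 and 6, at 23 and 20.7 CPM. Adam8, best known from leukocytes, went from 15.2 ± 2.84 to 10.5 ± 1.9 CPM (adjusted p = 0.00706), and here the ages overlapped. Adam15 (35.9 ± 4.8 and 40.8 ± 5.82 CPM) and Adam19 (33.5 ± 2.83 and 36.3 ± 6.13 CPM), a pair of sheddases of the vessel wall and of neuregulin, did not pass, and neither did Adam33, which was under 1 CPM on average at both ages. Adam15 passed without P9 replicate 5 (log2 fold change 0.26, adjusted p = 0.0387). The highest Adam33 value, 2.11 CPM, came from P3 replicate 1, the library with the high fibroblast sum, and a link between them was not tested.

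The neural ADAMs, Adam11, Adam22 and Adam23, have lost the catalytic site and serve as receptors for secreted LGI proteins at synapses. Adam11 fell, with means of 446 ± 99.4 and 267 ± 32.3 CPM at the 2 ages (log2 fold change -0.74 ± 0.13, SE; adjusted p = 0.000317). Its values ran from 338 CPM (P3 replicate 5) to 609.7 CPM (P3 replicate 2) at P3 and from 215 to 316 CPM at P9, so that the ages did not overlap and P3 replicates 4 and 5 lay nearest to P9. Adam22 (ENSMUSG00000040537.17, chromosome 5, 8072347 to 8368312) stood at 151, 174 and 197 CPM at P3 and 137, 152 and 173 CPM at P9. The difference of Adam22 did not pass (log2 fold change -0.17 ± 0.085, SE; adjusted p = 0.111), and Adam23 at 52.2 ± 9.02 and 57.2 ± 11.4 CPM did not pass either. All of them are best known from neurons, and markers of rods, bipolar cells and other neurons were present in these libraries; their part was not tested.

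ADAMs known mainly from testis and sperm were low except for Adam1a. Adam21, Adam32, Adam4 and Adam7 had means of 0.335 to 1.19 CPM at the 2 ages and did not pass. Adam32 passed under limma-voom (log2 fold change 2.14, adjusted p = 0.0410, against 1.11 ± 0.71, SE, in edgeR). Adam5, with 149 counts in all, was not tested. Adam1a rose slightly, from 29.4 ± 3.76 to 37.7 ± 5.24 CPM (adjusted p = 0.0108), with overlapping ages. Its counts were not whole in any library, which means that reads were shared with another gene by the model, so its level is less certain. The same held in at least 1 library for 10 members, among them Adam15 and Adamts9 in all 12 libraries and Adamts8 in 9.

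**Figure D3:**
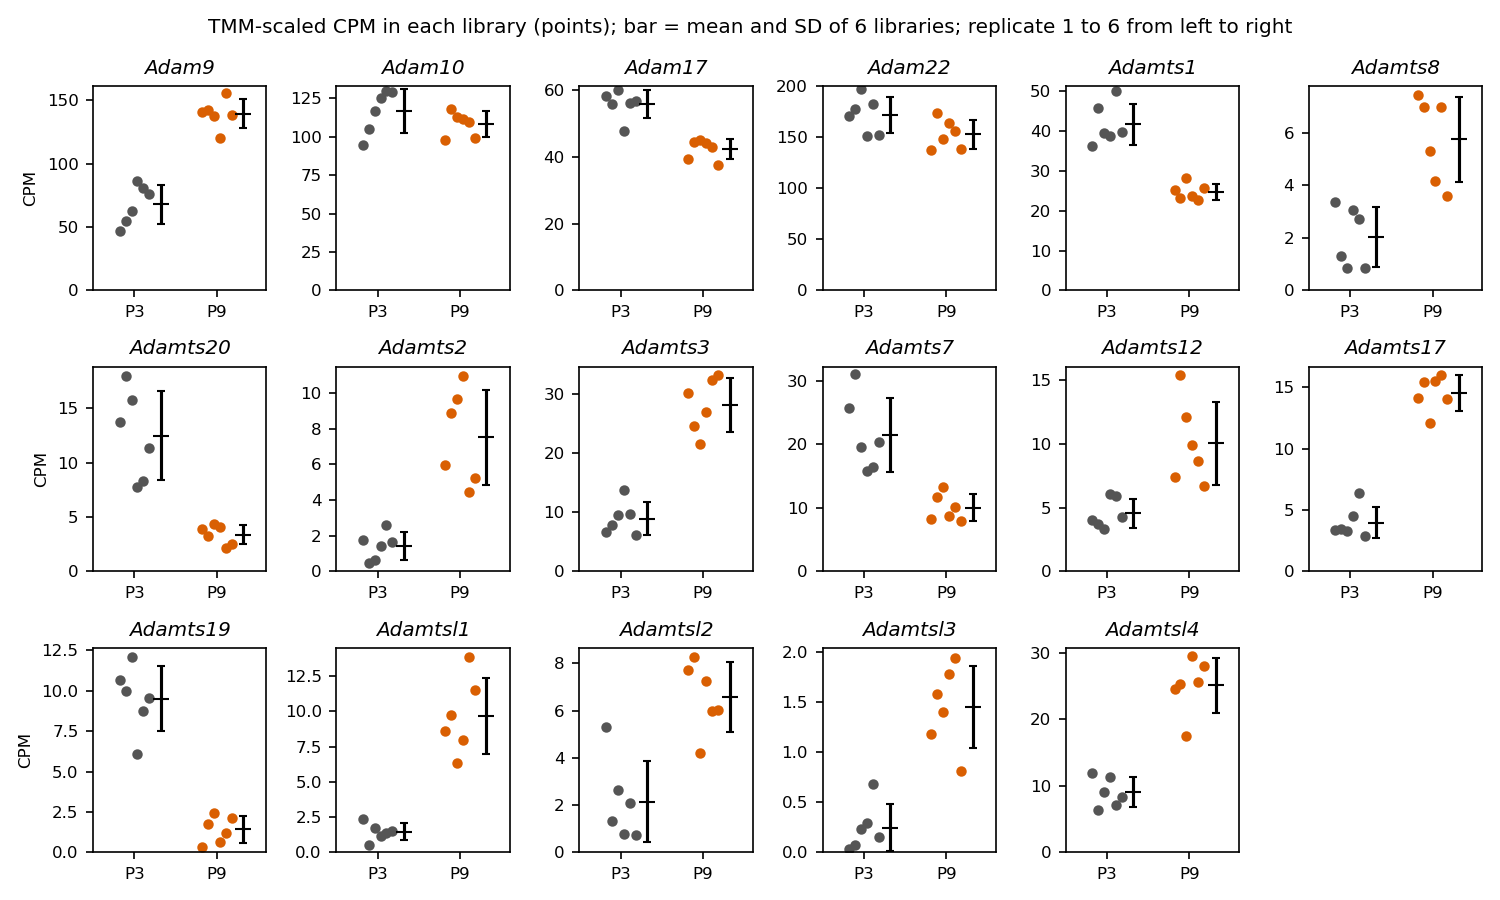
CPM in each library (points, replicates 1 to 6 from left to right, P3 grey and P9 orange) with mean and SD for the 13 members called with at least a 2-fold change and a mean of at least 1 CPM at an age, and for Adam10, Adam17, Adam22 and Adamts1; vertical axes start at 0. The ages do not overlap in any of these panels except those of Adam10, Adam22 and Adamtsl2.

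Among ADAMTS enzymes that cut versican and other large proteoglycans, Adamts1, Adamts4 and Adamts20 fell and Adamts8 and Adamts9 rose. Adamts1 (ENSMUSG00000022893.14, chromosome 16, 85793827 to 85803113), which is also known to restrain angiogenesis, was measured at 36.2, 39.7 and 49.99 CPM at P3 and 22.7, 24.4 and 28.2 CPM at P9. All P9 libraries were below all P3 libraries, and the P9 values were close together. Means were 41.7 ± 5.14 and 24.8 ± 2.01 CPM, lower by 1.68-fold (log2 fold change -0.75 ± 0.091, SE; adjusted p = 8.09e-06). Adamts4, an aggrecanase, went from 27.1 ± 3.05 to 17.9 ± 3.07 CPM (adjusted p = 0.000592) with no overlap.

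Adamts20 (ENSMUSG00000022449.14, chromosome 15, 94268314 to 94432074), the gene of the belted mouse, which lacks pigment in a band of skin, had values of 7.75, 12.6 and 18 CPM at P3 and 2.16, 3.57 and 4.32 CPM at P9. The ages were apart, and P3 replicates 4 and 5 were the lowest of their age at 7.75 and 8.32 CPM. It was 3.69-fold lower at P9 (log2 fold change -1.89 ± 0.24, SE; adjusted p = 1.36e-05). Progenitor and lens markers fell in the same libraries, and their part was not tested.

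Adamts8 (ENSMUSG00000031994.13, chromosome 9, 30942562 to 30963838), a relative of Adamts1 that is also known as an inhibitor of angiogenesis, was low, at 0.853, 2.02 and 3.37 CPM at P3 and 3.59, 6.14 and 7.46 CPM at P9. The lowest P9 value, 3.59 CPM in replicate 6, was close to the highest P3 value, 3.37 CPM in replicate 1. The rise was 2.82-fold (log2 fold change 1.496 ± 0.358, SE; adjusted p = 0.00269). Adamts9, a versican protease of endothelial cells and mesenchyme, went from 5.2 ± 1.4 to 8.36 ± 2.25 CPM (adjusted p = 0.0139) with overlapping ages. Adamts15 (4.63 ± 1.96 and 4.28 ± 1.7 CPM) and the aggrecanase gene Adamts5 (7.01 ± 1.33 and 9.91 ± 4.15 CPM) did not pass. Adamts5 ran from 4.9 to 15.1 CPM within P9, and it passed without P9 replicate 3 (log2 fold change 0.64, adjusted p = 0.0305).

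Of the members 5 pairs of direct neighbours lie within 200 kb of each other. Pairs with another member between them, such as Adam5 and Adam9 on either side of Adam32, were not counted. Adamts1, which fell, and Adamts5, which did not pass, are 55 kb apart on chromosome 16. On chromosome 9 Adamts15, which did not pass, lies 20.1 kb from Adamts8, which rose. Adam32 and Adam9 are 0.692 kb apart on chromosome 8, with log2 fold changes of 1.11 ± 0.71 and 1.03 ± 0.13 (SE), and only Adam9 passed (adjusted p of 0.207 and 1.37e-05). In the pair Adam4 and Adam21 neither passed, and in the pair Adam5 and Adam32 one was not tested and the other did not pass. With 51.8% of all genes called, unlike calls in a pair say little, and the differences within pairs were not tested.

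Of the procollagen N-proteinases, which trim fibrillar procollagens before fibril assembly, Adamts2 and Adamts3 rose. Adamts2 (ENSMUSG00000036545.8, chromosome 11, 50602085 to 50807573), whose loss causes the fragile-skin form of Ehlers-Danlos syndrome, was measured at 0.499, 1.53 and 2.62 CPM at P3 and 4.44, 7.41 and 10.9 CPM at P9. The highest P3 library was replicate 5 at 2.62 CPM and the lowest P9 library was replicate 5 at 4.44 CPM. The rise was 5.22-fold (log2 fold change 2.38 ± 0.37, SE; adjusted p = 8.39e-05). Adamts3 (ENSMUSG00000043635.12, chromosome 5, 89673841 to 89883668), which also activates the lymphatic growth factor VEGF-C, stood at 6.17, 8.67 and 13.8 CPM at P3 and 21.5, 28.6 and 33.2 CPM at P9. Every P9 library was above every P3 library, and P3 replicate 4 was the nearest at 13.8 CPM. It rose 3.14-fold (log2 fold change 1.65 ± 0.18, SE; adjusted p = 3.66e-06). Adamts14, the closest relative of Adamts2, stayed low and did not pass (0.889 ± 0.468 and 0.797 ± 0.385 CPM).

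Within P9 the order of the libraries differed between Adamts2 and Adamts3. Adamts2 was lowest in replicates 5, 6 and 1 (4.44, 5.25 and 5.96 CPM), and Adamts3 was highest in these (32.4, 33.2 and 30.2 CPM). The rod sums of these 3 libraries, 13119, 13517 and 11109 CPM, were also the highest of P9, and the pericyte sums, 4126, 2827 and 3643 CPM, the lowest. Their part in the levels of these genes was not tested.

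Adamts7 and Adamts12, a pair that cuts cartilage oligomeric matrix protein, went in opposite directions. Adamts7 (ENSMUSG00000032363.15, chromosome 9, 90162904 to 90200102), a protease studied in vascular smooth muscle migration, had values of 15.8, 19.95 and 31 CPM at P3 and 7.97, 9.44 and 13.3 CPM at P9. The ages were apart, with P3 replicates 4 and 5 (15.8 and 16.4 CPM) nearest to P9. It was 2.14-fold lower at P9 (log2 fold change -1.10 ± 0.18, SE; adjusted p = 0.000139). Adamts12 (ENSMUSG00000047497.9, chromosome 15, 11064773 to 11349232) stood at 3.33, 4.15 and 6.09 CPM at P3 and 6.67, 9.28 and 15.4 CPM at P9. Here too P3 replicates 4 and 5 were nearest to P9, at 6.09 and 5.88 CPM, against a lowest P9 value of 6.67 CPM. Its rise was 2.2-fold (log2 fold change 1.14 ± 0.22, SE; adjusted p = 0.000595).

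Adamts6 and Adamts10 act on fibrillin microfibrils. Adamts6 went from 10.7 ± 1.88 to 7.49 ± 2.47 CPM (adjusted p = 0.0422) and lay close to the threshold. Leaving out P3 replicate 1, 2, 3 or 4 ended the call (adjusted p of 0.0957, 0.0838, 0.0616 and 0.0558), as did leaving out P9 replicate 1, 2, 5 or 6 (0.0881, 0.0864, 0.0519 and 0.0916). The log2 fold change was -0.52 with all libraries and between -0.55 and -0.42 without one of these. Adamts10 (106 ± 30.8 and 88.6 ± 10.1 CPM) did not pass. At P3 it stood at 104 to 138 CPM in replicates 1, 2, 3 and 6 and at 72.7 and 66.8 CPM in replicates 4 and 5. Without replicates 4 and 5 the log2 fold change was -0.49 (adjusted p = 0.00167), and without replicate 5 alone -0.36 (adjusted p = 0.0470).

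The remaining ADAMTS enzymes, whose substrates are less well known, moved in both directions. Adamts17 (ENSMUSG00000058145.16, chromosome 7, 66839699 to 67153171), mutated in a Weill-Marchesani-like syndrome of the eye and skeleton, was measured at 2.89, 3.42 and 6.38 CPM at P3 and 12.1, 14.8 and 16 CPM at P9. P9 libraries were tightly grouped and far above P3, where replicate 5 was the highest at 6.38 CPM. The rise was 3.64-fold (log2 fold change 1.86 ± 0.18, SE; adjusted p = 1.1e-06). Adamts19 (ENSMUSG00000053441.4), known from heart valve and ovary, stood at 6.09, 9.75 and 12.1 CPM at P3 and 0.345, 1.47 and 2.46 CPM at P9. All P9 libraries were below all P3 libraries. It was 6.63-fold lower at P9 (log2 fold change -2.73 ± 0.37, SE; adjusted p = 2.66e-05), the largest fall among the tested members in this fit. Adamts18, needed for eye development, fell slightly from 29.6 ± 4.25 to 23.3 ± 2.61 CPM (adjusted p = 0.0136), a call lost without P9 replicates 5 and 6 (adjusted p = 0.0548), where the log2 fold change was -0.33 against -0.35, and Adamts16 did not pass (22.1 ± 4.7 and 22.7 ± 3.81 CPM).

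Of the 5 ADAMTS-like genes 4 rose (80% called, against 51.8% of all genes tested). Adamtsl1 (ENSMUSG00000066113.16, chromosome 4, 85513852 to 86428390), which encodes punctin, a matrix protein, was measured at 0.535, 1.46 and 2.35 CPM at P3 and 6.36, 9.17 and 13.8 CPM at P9. The ages were far apart, and at P9 replicates 5 and 6 were the highest. It rose 6.65-fold (log2 fold change 2.73 ± 0.29, SE; adjusted p = 2.65e-06), the largest rise among the tested members in this fit. Adamtsl4 (ENSMUSG00000015850.11, chromosome 3, 95676201 to 95687927), whose mutation displaces the lens of the eye, stood at 6.31, 8.74 and 12 CPM at P3 and 17.4, 25.5 and 29.5 CPM at P9. Its P9 libraries were all above its P3 libraries, with replicate 3 the lowest at 17.4 CPM. The rise was 2.77-fold (log2 fold change 1.47 ± 0.17, SE; adjusted p = 4.84e-06).

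Adamtsl2 (ENSMUSG00000036040.14, chromosome 2, 27079336 to 27108981), a binding partner of latent TGF-beta complexes, had values of 0.753, 1.71 and 5.32 CPM at P3 and 4.21, 6.63 and 8.26 CPM at P9. P3 replicate 1 reached 5.32 CPM, inside the P9 range, while the other P3 libraries stood between 0.753 and 2.64 CPM. The rise was 3.06-fold (log2 fold change 1.61 ± 0.41, SE; adjusted p = 0.0042). Without that library the log2 fold change was 2.12 (adjusted p = 0.000147). P3 replicate 1 carries the high fibroblast sum, and also the lowest lens, Müller glia and endothelial sums of P3 (3023, 716 and 878 CPM). The part of these cells was not tested. Adamtsl5 was also highest in this library among those of P3, with 3.11 CPM in P3 replicate 1 against 0.624 to 1.28 CPM in the other P3 libraries. It did not pass (adjusted p = 0.4), and it passed without that library (log2 fold change 0.96, adjusted p = 0.0356).

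Adamtsl3 (ENSMUSG00000070469.12, chromosome 7, 82335399 to 82614450), a relative of punctin, was barely present at P3, with values of 0.033, 0.192 and 0.678 CPM at P3 and 0.815, 1.49 and 1.94 CPM at P9. The ages did not overlap, although P3 replicate 5 at 0.678 CPM came near P9 replicate 6 at 0.815 CPM. The log2 fold change was 2.54 ± 0.55 (SE; adjusted p = 0.00134), and it was 3.17 without P3 replicate 5 and 3.55 without P3 replicates 4 and 5. At P3 this gene rested on 46 counts over 6 libraries, so the size of its rise is poorly fixed.

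**Figure D4:**
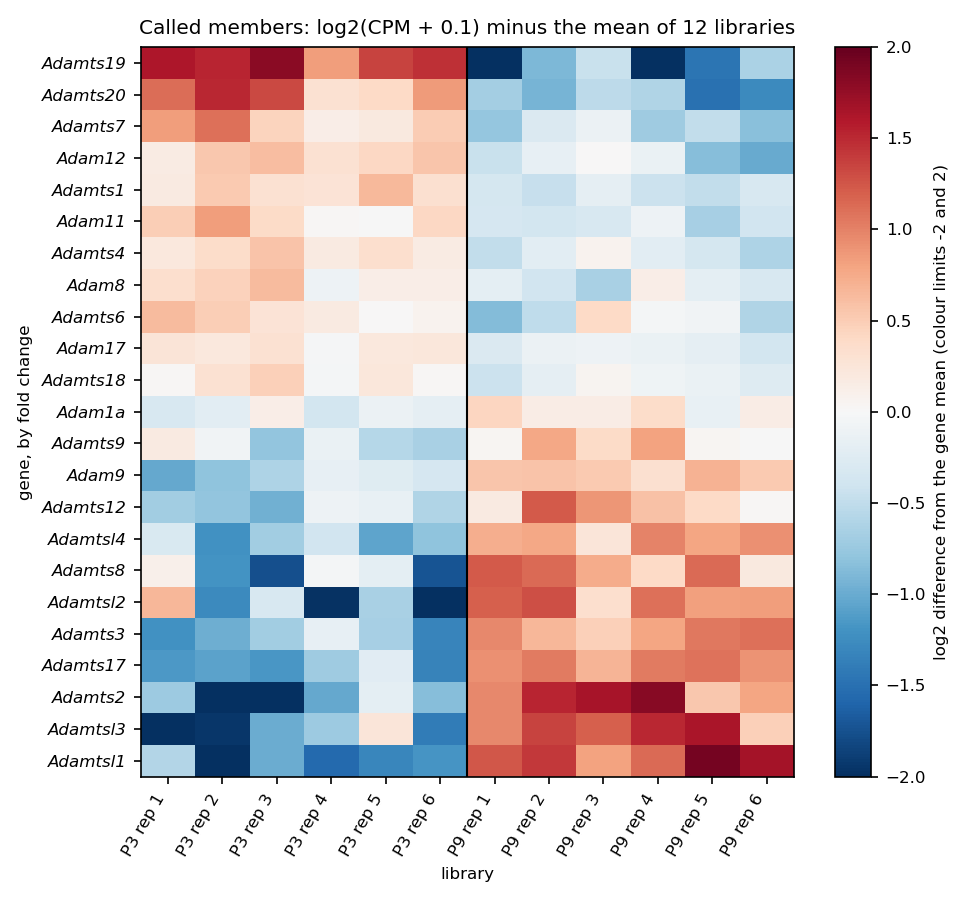
Log2(CPM + 0.1) of the 23 called members minus the mean of each gene over the 12 libraries (colour, limits at -2 and 2), with libraries as columns and genes ordered by fold change. P3 replicates 4 and 5 are paler than the other P3 libraries in Adam11, Adam9, Adamts20 and Adamts12.

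Individual libraries differed in how far they lay along these changes. For each of the 23 called members the P3 library nearest to the P9 mean was noted. It was replicate 4 for 9 genes, replicate 1 for 7 and replicate 5 for 5. Replicates 3 and 6 were nearest for 1 gene each, and replicate 2 for none. In the opposite direction P9 replicate 3 lay nearest to the P3 mean for 14 genes. Over all tested genes, P9 replicate 3 correlated with P3 replicates 5 and 4 at 0.945 and 0.944 (log2 CPM). Every other pair of libraries across the ages stood at 0.929 or lower, so this closeness was not particular to the family. P3 replicates 4 and 5 had the highest pericyte sums of P3 (1217 and 1345 CPM). They also had the highest rod sums (2306 and 2185 CPM) and Müller glia sums (1061 and 1080 CPM). Their progenitor sums were the lowest of P3 (1816 and 1949 CPM). P9 replicate 3 had the lowest rod and Müller glia sums of P9 (6263 and 1213 CPM) and the highest progenitor sum (1374 CPM). The part of these cells was not tested. Without P3 replicates 4 and 5 all 23 calls held. The spread within an age, as the coefficient of variation of the 32 members with at least 1 CPM at both ages, had a median of 21.8% at P3 and 17.7% at P9, and it was larger at P3 for 21 of them.

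Partners that carry ADAMs to the cell surface or activate them were called on both sides: 4 of the 13 measured were higher, 3 lower and 6 did not pass (median log2 fold change -0.053). The called share, 53.8%, was near the 51.8% of all genes. The list holds 6 tetraspanin genes whose products escort ADAM10. Tspan15 and Tspan14 fell from 137 ± 10.02 to 45.9 ± 9.15 CPM (adjusted p = 7.46e-08) and from 72.5 ± 8.01 to 35.8 ± 3.7 CPM (adjusted p = 3.98e-07). Tspan5 and Tspan17 rose from 22.1 ± 1.9 to 46.4 ± 9.28 CPM (adjusted p = 6.35e-06) and from 14.5 ± 2.09 to 21.5 ± 2.39 CPM (adjusted p = 0.000566), and Tspan33 and Tspan10 did not pass; these 4 are named after their values were seen. Pcsk6, a convertase that removes inhibitory propeptides, rose from 7.79 ± 0.806 to 25.9 ± 0.941 CPM (adjusted p = 7.1e-09).

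Of 7 inhibitors of these proteases 3 rose, 1 fell and 3 did not pass, a called share of 57.1% beside 51.8% of all genes. Timp3, the main inhibitor of ADAM17 and of several ADAMTS enzymes, rose 2.98-fold to 88 CPM, and Timp2, an inhibitor of matrix metalloproteinases, 2.09-fold to 77.2 CPM. Reck, a membrane-bound inhibitor, was 1.76-fold lower at P9, from 68.5 ± 11.2 to 38.9 ± 6.69 CPM (adjusted p = 9.76e-05).

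Of 20 cell-surface substrates of ADAMs 8 rose, 9 fell and 3 did not pass, a called share of 85% against 51.8% of all genes. Dll1, a Notch ligand that ADAMs cleave, fell from 154 ± 24.5 to 23 ± 5.86 CPM, the receptor gene Notch1 from 713 ± 74 to 136 ± 30.8 CPM, and Aplp2, a relative of the amyloid precursor, rose from 434 ± 42.6 to 832 ± 70.5 CPM (adjusted p of 1.4e-08, 1.25e-08 and 4.66e-07). Dll1 and Notch1 are also known from retinal progenitors, whose markers fell, and the part of these cells was not tested. Of the EGF family ligands 3 of 6 tested genes rose and 3 did not pass (50% called). Btc, the gene of betacellulin, rose 2.6-fold to 4.26 CPM, Tgfa, the gene of TGF-alpha, 1.61-fold to 8.89 CPM and Hbegf, the gene of heparin-binding EGF, 1.53-fold to 8.29 CPM. Among partners of the neural ADAMs 4 of 7 rose and 2 fell (85.7% called). Lgi4, an LGI ligand known from glia, fell from 62.2 ± 18.1 to 14.1 ± 2.87 CPM, whereas Lgi3 rose 3.56-fold and the synaptic scaffold gene Dlg4 2.8-fold.

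Of 16 matrix substrates of ADAMTS enzymes 4 rose, 1 fell and 11 did not pass, a called share of 31.2% beside 51.8% of all genes. Vcan, which encodes versican, the proteoglycan cut by Adamts1 and its relatives, fell from 46.1 ± 8.58 to 32 ± 5.74 CPM (adjusted p = 0.00553). Vwf, the von Willebrand factor gene of endothelial cells, rose 3.45-fold to 11 CPM (adjusted p = 0.00766). Thbs2, a thrombospondin gene, rose 2.66-fold to 10.9 CPM (adjusted p = 0.00619). The ages overlapped for Vcan, Vwf and Thbs2, and Vwf ran from 4.83 to 25.8 CPM within P9. The list of fibrillin microfibril partners of ADAMTS-like proteins held 8 genes, among them the fibronectin gene Fn1. None rose, 4 fell and 4 did not pass (50% called, median log2 fold change -0.69). Fbn2, the fibrillin of early development, fell from 94.1 ± 10.7 to 42.5 ± 10.2 CPM, Mfap2, a microfibril protein, from 48.3 ± 4.71 to 26.6 ± 4.55 CPM and Ltbp1, which anchors latent TGF-beta, from 35.8 ± 8.13 to 13.1 ± 3.99 CPM (adjusted p of 7.78e-06, 1.65e-05 and 2.39e-05). Of the 2 enzymes that put O-linked fucose sugars on thrombospondin repeats, Pofut2 rose from 42.4 ± 2.76 to 54.4 ± 6.15 CPM (adjusted p = 0.002) and B3glct did not pass (35.9 ± 4.56 and 33.7 ± 2.96 CPM).

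**Figure D5:**
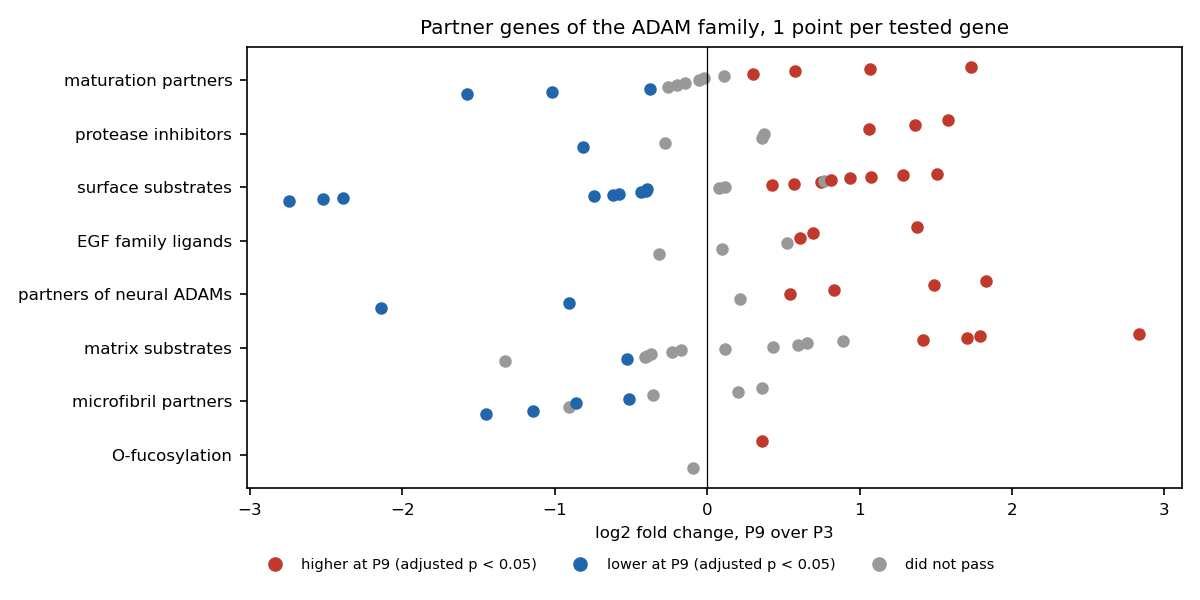
Log2 fold change of each tested partner gene, P9 over P3 (horizontal axis, one point per gene), by list on the vertical axis and coloured by the edgeR call. Surface substrates spread to both sides, with 8 higher and 9 lower (85% called). Of the microfibril partners 4 are lower and none is called higher (50% called). Of all genes tested 51.8% were called.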

How the data were processed

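Polysome RNA of 12 retinal libraries (6 per age) was sequenced after HA immunoprecipitation with a stranded kit. The authors deposited RSEM expected counts per gene, not scaled to depth; 15.9% are not whole. FastQC, Trim Galore, STAR, RSEM, limma and mm10 are named per the submitters' processing notes; the sources used here give neither versions nor annotation. Counts were rounded, filtered by filterByExpr (18638 of 53090 rows kept), scaled by TMM and tested with edgeR 4.0.16 (quasi-likelihood, Benjamini-Hochberg, R 4.3.3). Standard errors are the log2 fold change over the square root of F. Library totals ran from 26840000 to 37776000 counts, so 1 CPM rests on 25.8 to 38.5 counts. The fit was also run on simulated counts. Far fewer genes changed there than were called here, so that run does not show its accuracy on these data. Ages come from the labels; replicate numbers follow deposition order and pair nothing. Names of P9 replicates 5 and 6 are crossed between labels and files; both are P9.

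Members, roles, partner and marker lists and the alternatives were chosen with earlier results of these data known. Some genes stand in both a partner list and a marker list, so their counts are not independent. They are Notch3 (pericyte), Kdr and Cdh5 (endothelial) and Col1a1 and Col1a2 (fibroblast). Values by library are given for members called with at least a 2-fold change and a mean of at least 1 CPM at an age, and for Adam10, Adam17, Adam22 and Adamts1. Of each partner list the 3 called genes with the smallest p, or the 2 most abundant, are named. All 40 members matched RefSeq (GRCm38.p6) by symbol, and 22 had promoter windows. For a member the window nearest to the outer end of the gene was used. For values over all windows the first window listed for each gene was used, with no count minimum. The 3 windows printed were chosen after values were seen. No transcript lengths were used.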

Additional observations from a re-analysis of the deposited data

Results flagged for a closer look

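Within an age, 1 library stood clear of the other 5 by Dixon's criterion in 7 of 112 sets of 6 values (40 members and 16 marker sums at 2 ages), where chance gives about 1 in 20. Of these, 3 concern members. Adam17 was low in P3 replicate 4, at 47.6 CPM against 55.7 CPM or more. Adam33 was high in P3 replicate 1, at 2.11 CPM against 0.185 to 0.783 CPM. Adamtsl5 was high in the same library, at 3.11 CPM against 0.624 to 1.28 CPM.

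The other 4 concern marker sums. P3 replicate 1 held 484 CPM of fibroblast markers against 91.5 to 141 CPM. P9 replicate 2 held 208 CPM of astrocyte markers against 122 to 149 CPM, 819 CPM of lens markers against 35.2 to 169.9 CPM, and 1042 CPM of erythroid markers against 120.0 to 442 CPM.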

How the results depend on the processing

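Under median-ratio, upper-quartile or no scaling factors, no low-count filter, a floor of 1 CPM on the mean, tests by limma-voom 3.58.1 or DESeq2 1.42.0, an adjusted p under 0.01 and without P3 replicates 4 and 5 or P9 replicates 5 and 6, the members called higher numbered 10 to 13 (12 as reported) and those called lower 9 to 12 (11). Leaving out each library in turn gave 12 to 13 higher and 10 to 12 lower. Over these refits at the 0.05 threshold 21 of the 23 called members kept their call wherever they were tested, and no called member changed sign. Adamts6 lost its call in 11 refits, also with library totals (adjusted p = 0.0502) and with no low-count filter (adjusted p = 0.0687), and Adamts18 in 1. Partner genes called higher numbered 23 to 30 and lower 20 to 21 (27 and 20). No paired analysis was possible because no replicate number in the labels is shared by the ages. Another scaling or filter moved the median of all genes by 0.016 or less on the log2 scale. Depth limits the 8 members under 1 CPM at an age.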

Other observations

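Adam28, left out by the count minimum, had 87 of its 92 counts in P3 replicate 1 and 0 in the other 5 P3 libraries. A link with the high fibroblast sum of that library was not tested. Adamts13, the protease of von Willebrand factor, had 90 counts over all libraries and was likewise left out.

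The surface substrates included 4 Notch receptors and 4 of their ligands, which are singled out here after their values were seen. Notch3, the receptor known from mural cells and also counted among the pericyte markers, rose from 49.7 ± 16.7 to 141 ± 42.4 CPM (edgeR, adjusted p = 7.26e-05). Notch4, known from endothelium, rose from 7.47 ± 1.38 to 12.5 ± 3 CPM (adjusted p = 0.00195). Notch2 fell from 78.7 ± 6.95 to 59.9 ± 5.79 CPM (adjusted p = 0.000918), as did Notch1. Among the ligands Jag1 rose from 39.4 ± 2.86 to 58.5 ± 5.15 CPM (adjusted p = 2.19e-05), Dll4, a ligand of sprouting endothelium, fell from 29.6 ± 6.87 to 5.14 ± 2.04 CPM (adjusted p = 1.15e-06), as did Dll1, and Jag2 did not pass (73.7 ± 12.6 and 79.8 ± 8.15 CPM). Levels of these genes in single cell types were not measured.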
